A study of Homo sapiens with 2 samples.

Results

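The metallothioneins, their regulator MTF1 and the zinc transporters were examined on 2 expression arrays of PLC8024, a human hepatocellular carcinoma cell line. The members were chosen by gene symbol: every probe set (a group of array probes that reads 1 transcript) annotated with exactly 1 symbol that names a metallothionein, MTF1, an SLC30A or an SLC39A gene. They came to 35 genes of 19775, read by 74 of 41091 such probe sets. Of these, 10 genes and 14 probe sets were metallothioneins, 1 gene and 3 probe sets were MTF1, 10 genes and 26 probe sets were SLC30A and 14 genes and 31 probe sets were SLC39A. The families were proposed with earlier results of the same 2 arrays in view, among them a large difference in the metallothionein MT1M. All differences in expression are therefore given as a description, and no test was made.

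Both samples were PLC8024 cells sorted by flow cytometry as negative for CD133, a surface protein used to isolate tumour-initiating liver cancer cells. The empty vector sample received a lentivirus without an insert and the miR-130b sample a lentivirus with the microRNA miR-130b. The source label of the second sample says transfection, whereas its protocol describes a lentivirus. Each condition is 1 array of 1 culture, so nothing is known of the spread between cultures, and any other feature that separates the 2 cultures cannot be told apart from the vector.

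Metallothioneins are small cysteine-rich proteins that bind zinc, copper and cadmium in the cytosol, and the liver is a main site of their synthesis. Most human metallothionein genes lie side by side in 1 cluster on the long arm of chromosome 16. The zinc finger protein MTF1 binds metal response elements in their promoters when free zinc is high and switches them on, and glucocorticoids and interleukin-6 also induce them. SLC30A proteins move zinc out of the cytosol, across the cell membrane or into organelles, and SLC39A proteins move it in. MTF1 also acts on SLC30A1, the exporter of the cell membrane.

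The agent of the experiment and the promoters of the members are shown first. RefSeq (GRCh38.p14) lists the mature strands miR-130b-5p and miR-130b-3p. Printed is miR-130b-3p, on chr22:21653354-21653375, plus strand, with the seed (bases 2 to 8) in capitals. No match to the seed was searched for in any gene.
miR-130b-3p: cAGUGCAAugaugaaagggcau

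RefSeq promoters, 300 bases from 250 before to 50 after the annotated start, were found for 26 of the 35 genes, 4 of them metallothioneins. Those of MT2A (chr16:56608334-56608633, plus strand), MT1H (chr16:56669564-56669863, plus strand) and MT1X (chr16:56682220-56682519, plus strand) are printed because their probe sets were among the lower ones on the miR-130b array. These probe sets can also read related transcripts, so the lower values cannot be assigned to these genes. The promoters of MT4 (chr16:56564823-56565122, plus strand) and SLC30A1 (chr1:211579112-211579411, minus strand) are printed because their probe sets were not among the lower ones. No link between promoter matches and expression was tested. All are from GRCh38.p14 and read 5′ to 3′ on the gene's strand. Capitals mark the core of the metal response element, searched as TGCACNC and TGCGCNC on both strands.
MT2A: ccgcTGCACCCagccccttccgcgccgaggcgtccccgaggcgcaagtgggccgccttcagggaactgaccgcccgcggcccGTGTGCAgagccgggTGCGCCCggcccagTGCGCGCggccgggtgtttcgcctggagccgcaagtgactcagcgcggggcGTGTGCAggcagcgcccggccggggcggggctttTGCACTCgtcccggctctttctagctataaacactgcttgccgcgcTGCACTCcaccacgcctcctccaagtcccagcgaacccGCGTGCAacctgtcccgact
MT1H: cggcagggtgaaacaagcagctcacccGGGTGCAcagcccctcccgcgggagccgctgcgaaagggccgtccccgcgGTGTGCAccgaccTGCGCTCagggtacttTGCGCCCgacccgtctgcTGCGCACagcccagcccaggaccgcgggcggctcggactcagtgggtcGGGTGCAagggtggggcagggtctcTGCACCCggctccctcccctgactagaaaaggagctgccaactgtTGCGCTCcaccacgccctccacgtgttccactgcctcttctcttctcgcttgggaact
MT1X: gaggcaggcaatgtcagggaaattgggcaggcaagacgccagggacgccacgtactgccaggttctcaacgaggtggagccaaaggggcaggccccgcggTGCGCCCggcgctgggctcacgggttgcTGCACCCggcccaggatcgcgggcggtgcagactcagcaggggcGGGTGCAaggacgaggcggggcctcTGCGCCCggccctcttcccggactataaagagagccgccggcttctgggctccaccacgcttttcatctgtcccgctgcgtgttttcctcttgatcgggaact
MT4: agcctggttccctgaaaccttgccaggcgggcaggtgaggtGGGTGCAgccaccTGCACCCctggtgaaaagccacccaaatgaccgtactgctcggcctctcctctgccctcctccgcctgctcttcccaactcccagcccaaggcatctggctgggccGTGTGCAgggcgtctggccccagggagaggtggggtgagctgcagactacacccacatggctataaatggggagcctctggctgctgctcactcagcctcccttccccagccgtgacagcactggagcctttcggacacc
SLC30A1: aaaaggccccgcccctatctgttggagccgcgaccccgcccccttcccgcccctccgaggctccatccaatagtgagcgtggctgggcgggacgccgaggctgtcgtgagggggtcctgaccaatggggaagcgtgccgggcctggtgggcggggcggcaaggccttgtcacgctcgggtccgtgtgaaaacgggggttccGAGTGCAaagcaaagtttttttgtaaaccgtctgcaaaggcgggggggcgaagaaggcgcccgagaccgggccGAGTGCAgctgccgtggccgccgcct

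The metallothionein promoters held 3 to 8 core matches each. MT2A and MT1H both had 8, a number that 0.0199% of the 35116 promoters of this length reached or passed. MT1X had 4, reached by 0.601%, and MT4 had 3, reached by 2.3%. MT1H, MT1X and MT2A shared a match close to the same place, with its first base 53 bases before the start in MT1H and MT1X and 54 in MT2A. A TATAAA match on the gene's strand, present in 7.33% of all promoters, began 29 bases before the start in MT2A and MT4 and 30 in MT1X. None was found in MT1H within this window, and no matches of any kind overlapped in the members' promoters. After global alignment the 4 metallothionein promoters were 54.9% to 64.2% identical, the highest being MT1H with MT1X.

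Zinc transporter promoters held 0 to 3 matches. Of 21 genes with a promoter, 9 had 0, 9 had 1, 2 had 2 and 1 had 3, taking the start with most matches where a gene had several. SLC30A1 and SLC30A3 had 2, a number reached by 8.6% of all promoters, and SLC30A2 had 3, as many as MT4. A match occurred in 29.6% of all promoters, and the MTF1 promoter had 0. A match is a string of letters in this window and does not show that MTF1 binds there.

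**Figure D1:**
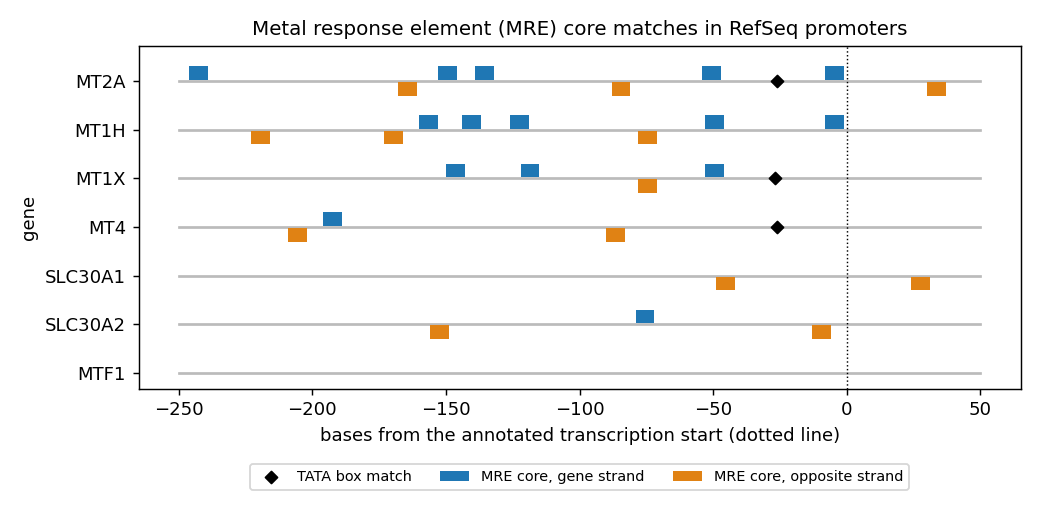
Core metal response element matches (bars, 7 bases wide) and TATAAA matches (diamonds) in the promoters of 7 members, by bases from the annotated start. MT2A and MT1H carry 8 bars each, MT1X 4, MT4 3, SLC30A1 2, SLC30A2 3 and MTF1 0.

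The authors deposited 1 log2 value per probe set and array, made with RMA, and a difference is the log2 value with miR-130b minus that with the empty vector. A probe set was counted as lower or higher from a 1.5-fold difference (0.585), a rule of size and not a test. The column medians were 4.886 and 4.879, and the median difference of all 41091 probe sets was 0.016. The only error available is technical: probe sets of the same gene differed with a pooled SD of 0.197 over 5851 genes, members left out. The 3′ to 5′ signal ratio of the ACTB control transcript, a measure of RNA integrity, was 1.95 on the empty vector array and 2.41 on the miR-130b array, and that of GAPDH was 1.37 and 1.52. Their part in the differences below was not tested.

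Metallothioneins of the MT1 and MT2 classes were lower on the miR-130b array by 2.69-fold to 12.0-fold, apart from 1 dim MT1G probe set. Of the 14 metallothionein probe sets, 11 were at least 1.5-fold lower, against 1.83% of all probe sets, and 0 were higher, against 0.241%. The same 11 were also at least 2-fold lower, against 0.862%. The median difference was -2.45, beside 0.016 for all probe sets. By gene, with the brightest probe set standing for each, 8 of 10 were at least 1.5-fold lower, against 1.91% of all genes. All of the 8 but MT1M are read there by probe sets that can cross-hybridise, so they are not separate measurements. Of the 100 probe sets with the lowest differences on the arrays, 10 read metallothioneins. The contrast that brought the family forward is the same one, so these counts describe it and support nothing further.

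MT1M, an MT1 gene expressed in liver, gave the lowest difference. Its only probe set stood at 7.33 on the empty vector array and at 3.74 on the miR-130b array, a difference of -3.58 or 12.0-fold, at rank 12 of 41091 from the bottom. The miR-130b value lies below the median of all probe sets, 4.88, where RMA values hold mostly background, so the fold is imprecise. MT1M is also the only metallothionein of the 11 whose probe set lacks the suffix that marks cross-hybridisation.

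MT2A, the MT2 isoform and a widely used readout of zinc exposure, stayed bright on both arrays. It stood at 11.04 with the empty vector and at 8.91 with miR-130b, a difference of -2.13 or 4.39-fold lower. MT1X, a broadly expressed MT1 gene, was read by a pair of probe sets that gave nearly the same result. Both carry the cross-hybridisation suffix, so they may read shared transcripts and are not separate measurements of MT1X. The first stood at 10.09 and 7.65 and the second at 9.65 and 7.19, with differences of -2.44 and -2.46. The SD of these differences, 0.012, was far smaller than the pooled SD between probe sets of a gene.

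MT1F was lower by 8.53-fold in its brighter probe set, from 9.81 to 6.72. The dimmer one went from 8.89 to 5.90, a difference of -2.99 beside -3.09. MT1H, another zinc-binding MT1 isoform, stood at 10.20 with the empty vector and at 7.65 with miR-130b, 5.87-fold lower. MT1HL1, an MT1H-like gene that lies outside the cluster, stood at 10.77 and 8.13, 6.21-fold lower. In all of these the miR-130b value remained above the median of all probe sets.

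For MT1E and MT1G the probe sets disagreed. MT1E went from 10.48 to 7.23 in one, a difference of -3.26, and from 8.31 to 6.89 in the other, a difference of -1.43. Both carry the cross-hybridisation suffix, and the SD of their differences, 1.29, was well above the pooled SD of 0.197. MT1G stood at 9.71 and 7.62 in its probe set with the suffix, 4.27-fold lower. Its probe set without the suffix was dim on both arrays, at 4.05 and 3.80, with a difference of -0.25.

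MT3, which is best known from the brain, and MT4, known from stratified epithelium, lay near the median of all probe sets and did not reach 1.5-fold. MT3 stood at 4.87 and 4.76, a difference of -0.11. MT4 stood at 5.18 and 5.32, a difference of 0.15 and the only metallothionein value above 0. RefSeq lists 20 metallothionein genes and pseudogenes under the naming used here, and the other 10 have no probe set of their own under the rule and were not analysed here.

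**Figure D2:**
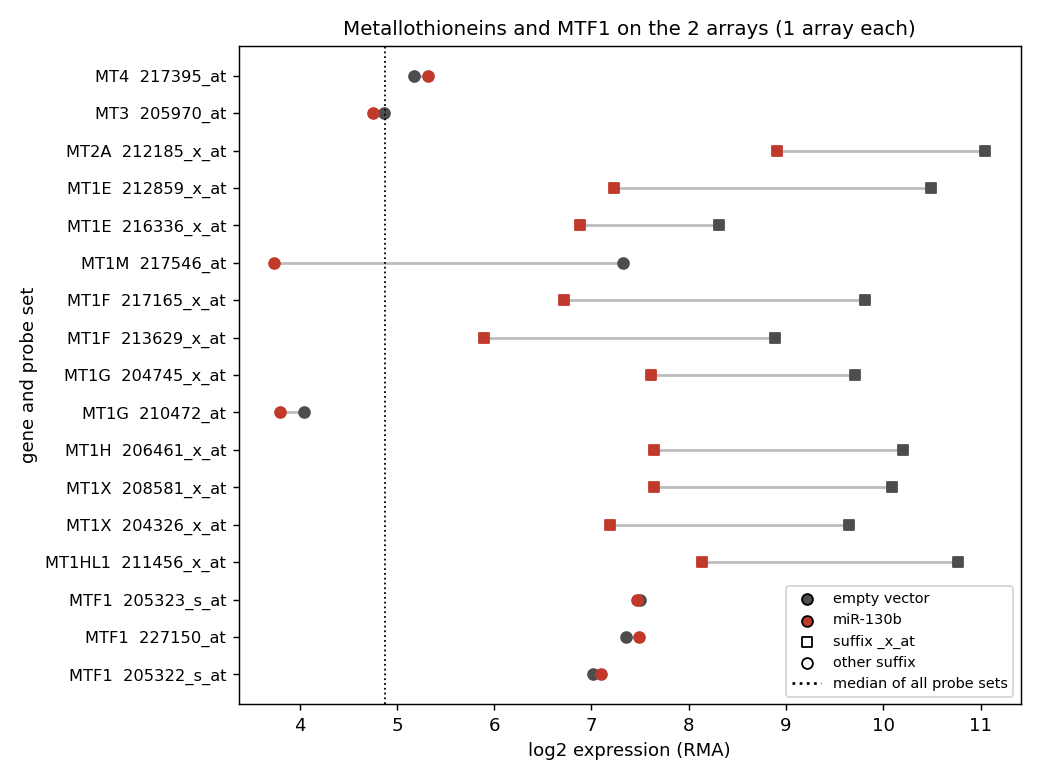
Log2 expression of the 14 metallothionein and 3 MTF1 probe sets on the empty vector array (grey) and the miR-130b array (red), 1 array each, with squares for the suffix _x_at and a dotted line at the median of all probe sets. The 10 squares and MT1M sit between 7.33 and 11.04 with the empty vector and between 3.74 and 8.91 with miR-130b, while MT3, MT4, MTF1 and the dim MT1G probe set show nearly equal values.

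The suffix _x_at marks probe sets that can also hybridise with other transcripts, which in a family of near-copies means mainly other metallothioneins. All 10 metallothionein probe sets with _x_at were at least 2-fold lower, with differences from -3.26 to -1.43 and a median of -2.51. Of the 4 without it, MT1M was lower and the probe sets of MT1G, MT3 and MT4 were not, with a median of -0.18 for the 4. The classes also differed in level: probe sets with _x_at ran from 8.31 to 11.04 on the empty vector array and those without it from 4.05 to 7.33. Suffix and level therefore cannot be told apart among these members. Since probe sets with _x_at may read shared transcripts, the genes read only by them are not separate measurements, and which of those genes differ cannot be told apart. MT1M lacks the suffix, but its difference is among those that brought the family forward, and it lay above the median of all probe sets on the empty vector array only.

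Over all probe sets with the suffix the differences centred near 0. Of 2998 probe sets with _x_at, 1.93% were at least 1.5-fold lower, close to the 1.83% of all probe sets, and their median difference was -0.002. Of these, 1213 had a mean no lower than the 75th percentile of all values (6.98), and 22 of the 1213 were at least 2-fold lower, which is 1.81%. Of the 22, 10 were the metallothionein probe sets. The floor is on the mean of both arrays, so a probe set can pass it through its empty vector value alone. Both MT1F probe sets and the dimmer MT1E one did so, at 6.72, 5.90 and 6.89 with miR-130b, as did some of the other genes. The count of 22 is thus partly set by the floor and supports nothing further. With the members left out, 0.999% of the other 1201 were at least 2-fold lower, with a median difference of -0.002. The 4 zinc transporter probe sets with _x_at had a median of 0.25 and none reached 1.5-fold.

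**Figure D3:**
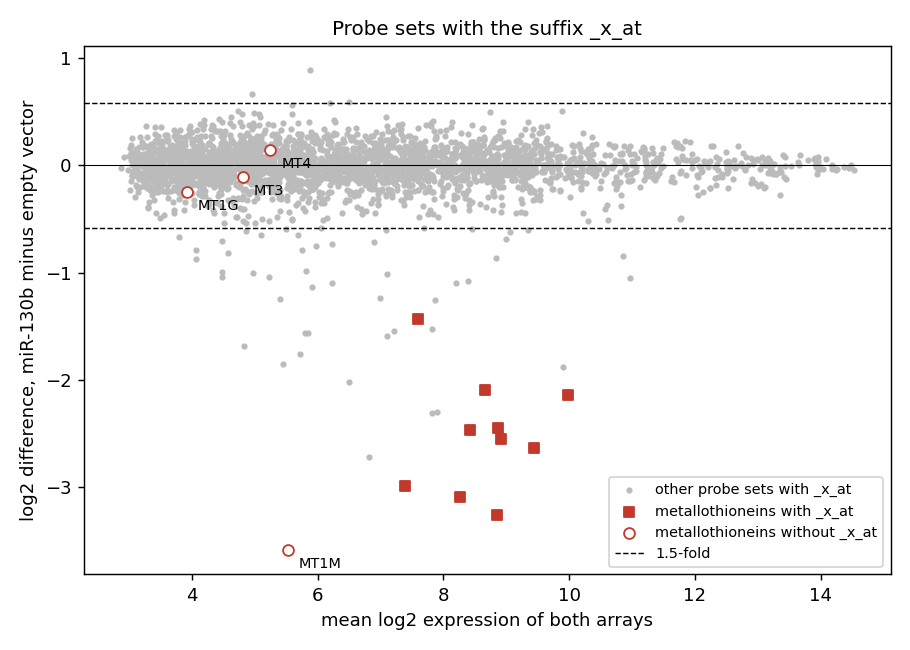
Log2 difference against mean log2 expression for the 2998 probe sets with the suffix _x_at, with metallothioneins as red squares and the 4 metallothionein probe sets without it as open circles. The squares lie between -3.26 and -1.43 while the grey points centre on a median near 0, and of the open circles MT1M alone lies below the 1.5-fold line.

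MTF1 itself was similar on both arrays. Its brightest probe set stood at 7.50 with the empty vector and at 7.47 with miR-130b, a difference of -0.03. The others differed by 0.13, from 7.36 to 7.49, and by 0.09, from 7.01 to 7.10. All lie within the pooled SD between probe sets of a gene. RNA levels say nothing of MTF1's location or activity, which depend on zinc.

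Of 12 other regulators of metallothionein genes, 1 was at least 1.5-fold lower and 0 were higher, where 1.91% of all genes were lower and 0.212% higher by their brightest probe set. The median of the 12 was -0.02, beside 0.027 over all genes. HIF1A, the oxygen-sensitive transcription factor, stood at 11.35 and 10.67, a difference of -0.68 in its only probe set. EP300, a coactivator with acetyltransferase activity, differed by 0.28 and CEBPA, a hepatocyte transcription factor, by -0.26. NR3C1, the glucocorticoid receptor, stood at 11.24 and 11.40, a difference of 0.16.

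Zinc exporters of the SLC30A family stayed within 1.5-fold in all 26 probe sets. Of all probe sets, 1.83% were lower and 0.241% higher, so this is near those shares. The exporters' median difference was 0.06, with a range from -0.54 to 0.39. SLC30A1, the exporter that MTF1 regulates together with metallothioneins, stood at 10.91 and 11.02 in its brightest probe set, a difference of 0.11. Its other probe sets differed by 0.14, from 9.20 to 9.34, and by 0.10 at a dim level. All 3 values lay above 0 by less than the pooled SD of 0.197.

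SLC30A4, an endosomal exporter, went from 7.08 to 7.47, a difference of 0.39, with -0.09 and 0.13 in its dim probe sets. SLC30A7, which loads the Golgi, differed by 0.30 from 9.49 to 9.78, and SLC30A5, which works as a dimer with SLC30A6, by 0.27 from 9.53 to 9.80. The other 4 SLC30A5 probe sets ran from -0.03 to 0.36, with 1 at 8.71 on both arrays. SLC30A6 differed by 0.02 in its brightest probe set, at 8.65 and 8.67.

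The remaining exporters were dim or close to equal. SLC30A9, a mitochondrial transporter, stood at 8.69 and 8.72, and SLC30A3, the exporter of synaptic vesicles, at 7.23 and 7.25. SLC30A2, an exporter of secretory vesicles, was at 5.90 on both arrays, 1 of 3 members whose deposited values were identical on the arrays, as they were in 3.92% of all probe sets. SLC30A8, the exporter of insulin granules, was dim at 4.43 and 4.40. SLC30A10, known as a manganese exporter, gave the lowest value of the family, from 5.03 to 4.49, a difference of -0.54 just short of 1.5-fold and near the median of all probe sets.

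Zinc importers of the SLC39A family had 1 of 31 probe sets at least 1.5-fold lower and 0 higher, beside 1.83% and 0.241% of all probe sets, with a median of 0.07. A count of 1 is near that share. That probe set reads SLC39A8, an importer of zinc, manganese and cadmium, and went from 5.49 to 4.16, a difference of -1.33. The brightest SLC39A8 probe set went from 5.74 to 5.27, a difference of -0.47. The other 4 differed by 0.09 to 0.27. The probe set at -1.33 and these 4 had means below the median of all probe sets, 4.88, and only the one at -0.47 lay above it. The 6 SLC39A8 probe sets thus ranged over 1.60, and the gene's difference rests on the pair that was brightest with the empty vector.

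SLC39A14, the liver importer that interleukin-6 induces, was bright and nearly equal, at 11.93 with the empty vector and 11.94 with miR-130b. Its other probe sets differed by -0.14 and -0.18. SLC39A6 stood at 10.48 and 10.63 and SLC39A9 at 10.04 and 10.28, with probe sets on both sides of 0 for each gene. SLC39A10, a relative of SLC39A6, had the highest value among the importers, from 8.50 to 8.85, a difference of 0.35.

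SLC39A11 differed by 0.30, from 7.47 to 7.76, in its only probe set. SLC39A4, the importer of dietary zinc, stood at 9.15 and 9.31, and SLC39A1, a widely expressed cell membrane importer, at 7.89 and 8.01. SLC39A7 and SLC39A13, which release zinc from the endoplasmic reticulum and the Golgi, stood at 7.71 and 7.76 and at 7.20 and 7.37. These differences are smaller than the pooled SD between probe sets, SLC39A11 apart.

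SLC39A2, SLC39A3, SLC39A5 and SLC39A12 complete the family. SLC39A3 stood at 8.28 and 8.13 in its brightest probe set, a difference of -0.15, with 0.22 and -0.24 in the others. SLC39A5, an importer of liver and pancreas, stood at 6.82 and 6.95, a difference of 0.12 beside -0.11 in its other probe set. SLC39A2 stood at 4.85 and 4.98, and SLC39A12, an importer of brain, was dim at 3.22 and 3.26.

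Taken by their brightest probe set, 19 of the 24 zinc transporter genes were above 0, 4 below and 1 equal. That is 79.2%, beside 54.2% of all genes. The transporters' median of 0.12 stands beside 0.03 for all genes and is smaller than the pooled SD of 0.197. Of all probe sets with a plain _at suffix and a mean no lower than the 75th percentile, 61.1% were above 0, with a median of 0.049. After loess centring, which removes a trend of the difference with level, SLC30A6, SLC30A9 and SLC39A14 fell just below 0, at -0.01, -0.009 and -0.006. With all 57 probe sets, 37 were above 0, 64.9% against 51.5% of all probe sets, and the median was 0.07. No transporter probe set reached 1.5-fold higher, beside 0.241% of all probe sets.

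**Figure D4:**
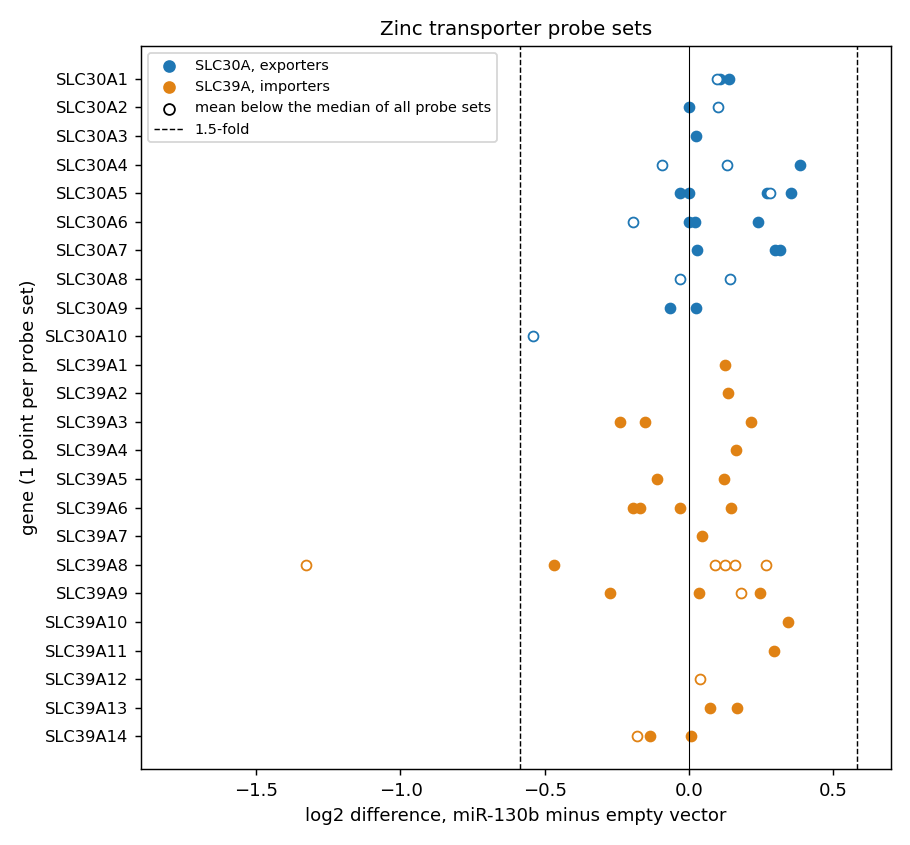
Log2 difference of each of the 57 zinc transporter probe sets by gene, blue for SLC30A and orange for SLC39A, open where the mean lies below the median of all probe sets. All points but 1 SLC39A8 probe set at -1.33 lie between the dashed 1.5-fold lines, and the highest is SLC30A4 at 0.39.

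Of 20 listed genes near the metallothionein cluster, 19 stayed within 1.5-fold, as did 19355 of all 19775 genes. The count is near that share. In RefSeq order the listed gene before MT4 is BBS2, which encodes a cilium protein, and the listed gene after MT1X is NUP93, a nuclear pore protein. BBS2 stood at 7.01 and 7.03, a difference of 0.03, and NUP93 at 8.70 and 8.73, also 0.03. Of the 7 metallothionein genes from MT2A to MT1X in that order, the brightest probe set was lower by 4.27-fold or more, whereas those of MT4 and MT3, at the BBS2 end, were not. For 6 of the 7 that probe set carries _x_at, so the genes cannot be told apart, and the MT1G probe set without the suffix differed by -0.25.

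Of 20 listed neighbours with a probe set, 1 was at least 1.5-fold lower and 0 higher, beside 1.91% and 0.212% of all genes, with a median of 0.01. CX3CL1, a chemokine gene further along, went from 6.91 to 6.08, a difference of -0.82, with -1.04 in its other probe set. HERPUD1, a gene of the endoplasmic reticulum stress response, differed by 0.35 from 11.91 to 12.25, with -0.19 in another probe set. RSPRY1 differed by 0.30, from 8.73 to 9.03.

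**Figure D5:**
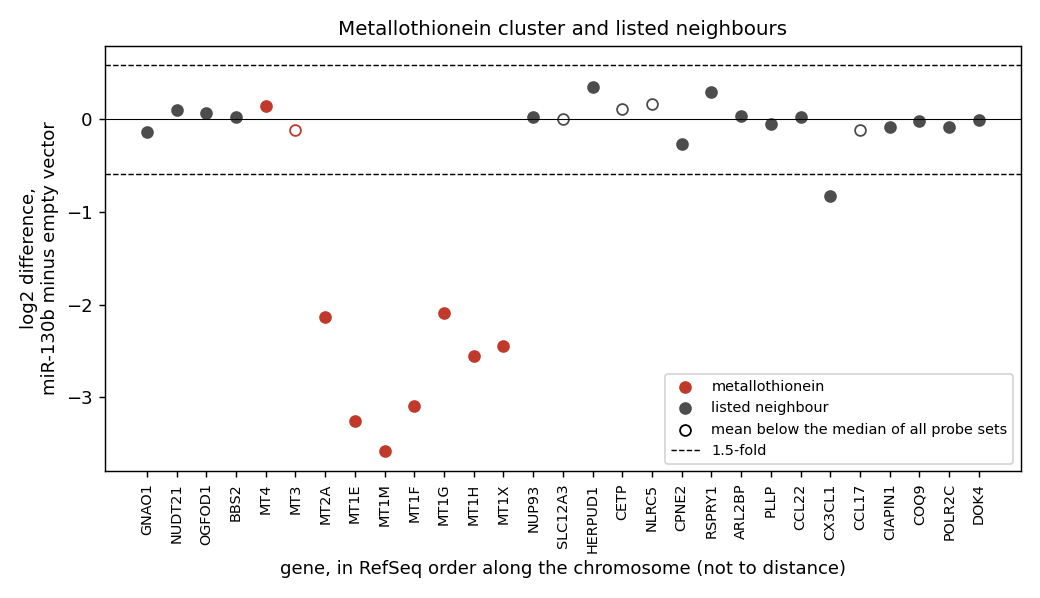
Log2 difference of the brightest probe set of 9 clustered metallothionein genes (red) and 20 listed neighbours (grey) in RefSeq order, evenly spaced and not to distance, open where the mean lies below the median of all probe sets. MT2A to MT1X lie between -3.58 and -2.09, and the neighbours lie between -0.82 and 0.35.

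Listed metal and oxidative stress response genes other than metallothioneins stayed within 1.5-fold. Of 10 measured members of a list of 12, 0 reached 1.5-fold in either direction, beside 1.91% of all genes lower and 0.212% higher. A count of 0 is near those shares. The median was 0.08. HMOX1, the heme oxygenase that cadmium induces strongly, stood at 10.54 and 10.80, a difference of 0.26. HSPH1, a heat shock protein, differed by 0.21 and GCLM, a subunit of the enzyme that starts glutathione synthesis, by 0.20. Each had a further probe set with a value below 0, except HMOX1, which has 1 probe set.

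Glucocorticoid-induced genes, a second route to metallothionein induction, had 1 of 10 measured members at least 1.5-fold lower, beside 1.91% of all genes, and 0 higher, beside 0.212%, with a median of -0.05. That gene was SGK1, a kinase of ion transport, which went from 8.50 to 6.28, a difference of -2.22 in its only probe set. NFKBIA, the inhibitor of NF-kappaB, differed by -0.20 and FKBP5, a glucocorticoid receptor chaperone, by 0.14. Interleukin-6 response genes had 1 of 12 at least 1.5-fold lower and 0 higher, against the same 1.91% and 0.212%, with a median of 0.02. HAMP, which encodes the iron hormone hepcidin, went from 7.89 to 4.66, a difference of -3.22 in its only probe set. LBP, a lipopolysaccharide-binding protein, differed by 0.56 and IL6R, the interleukin-6 receptor, by 0.45, with -0.13 in another IL6R probe set.

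Other metal handling genes were compared by the same rule. Of 13 copper genes, 1 was at least 1.5-fold lower (1.91% of all genes) and 0 were higher (0.212% of all genes), and the median was 0.03. CCS, the copper chaperone of the zinc and copper enzyme SOD1, went from 8.93 to 8.29, a difference of -0.64, whereas SOD1 itself stood at 12.88 and 12.89. ATP7A, a copper exporter, differed by 0.32, with 0.04 in its other probe set, and SCO2, a copper chaperone of mitochondria, by -0.13.

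Of 11 iron genes measured, 1 was at least 1.5-fold lower (1.91% of all genes) and 0 were higher (0.212% of all genes), and the median was 0.07. SLC40A1, the iron exporter ferroportin, went from 8.72 to 7.63, a difference of -1.09, but its other probe set differed by 0.07. TFR2 had a dimmer probe set at -0.96 beside 0.18 in its brightest. BMP6, a ligand that induces hepcidin, differed by 0.28 and SLC25A37, a mitochondrial iron importer, by 0.28, each with a further probe set below 0.

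Markers of the cells the cultures could hold were read on the same arrays. All 8 hepatocyte markers had a mean at or above the median of all values, with SERPINA1 at 14.07 and 14.16. TTR, a thyroxine carrier, differed by -3.34 and ALB, serum albumin, by -1.03. These were 2 of 8 at least 1.5-fold lower, beside 1.91% of all genes, and 0 were higher, beside 0.212%. The 4 ALB probe sets ran from -2.38 to -0.14. APOA1, an apolipoprotein, differed by -0.51, and its 3 probe sets ran up to 0.11. Of 3 hepatocellular carcinoma markers, 1 was at least 1.5-fold lower and 0 higher, beside the same shares of all genes, and all 3 lay below 0. AFP, alpha-fetoprotein, differed by -0.57. GPC3, a glypican, differed by -0.11, with 0.14 in another probe set. PROM1, the gene of the sort marker CD133, was the lower one. PROM1 stood at 9.19 on the empty vector array and 6.07 on the miR-130b array, although both samples are labelled negative for CD133. Of 8 fibroblast markers 1 was lower, COL1A2 with a difference of -3.08, and 0 were higher, beside 1.91% and 0.212% of all genes. Of the 8, 7 lay below 0, as did 8361 of all 19775 genes. The 3 COL1A2 probe sets ran from -3.25 to -0.05, and COL1A1, another collagen gene, had a dimmer probe set at -1.69 beside -0.08 in its brightest. Of 5 endothelial and 4 measured leukocyte markers none reached 1.5-fold by the brightest probe set. By that probe set, 2 of the 5 and 1 of the 4 had a mean at or above the median of all values. LYZ, lysozyme, stood at 9.78 and 9.46 in its brightest probe set and differed by -1.72 in a dimmer one. The leukocyte marker PTPRC stood at 3.82 and 3.80, and the endothelial marker PECAM1 at 8.51 and 8.72. The part of these differences in the metallothionein values was not tested.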

How the data were processed

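The authors deposited log2 expression values, 1 for each probe set on each array. They were made with RMA, with no version, per the submitters' processing notes. The RMA settings and the set of arrays normalized jointly were not given in the sources used here. Of 54675 probe sets, 62 controls were left out, and 41091 had exactly 1 symbol in the platform annotation, 1801 several and 11721 none. All 35 member genes were matched to RefSeq by Entrez identifier, and 0 symbols differed. Differences were computed with no floor, because a floor on the brighter array keeps a dim probe set only where it differs. Lists were read by the probe set with the highest mean.

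The members, lists and rules were chosen with earlier results of these data known. Named are all metallothionein and MTF1 probe sets, each transporter gene, and up to 3 genes per list by size. SOD1, SERPINA1, PTPRC, PECAM1, NUP93, BBS2, NR3C1, LYZ, COL1A1, TFR2 and PROM1 were added after their values were seen. Promoters came from RefSeq (GRCh38.p14) and were searched as strings. The number of arrays, 2, limits the precision. The counting was tested on simulated data. Alternatives were floors, 1 probe set per gene, no _x_at and _s_at probe sets, and loess centring (span 0.3). Python 3.11.15, numpy 2.4.6, pandas 2.3.3, statsmodels 0.14.6 and matplotlib 3.10.9 were used.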

Additional observations from a re-analysis of the deposited data

How the results depend on the processing

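Loess centring moved no member by more than 0.034 on the log2 scale. All 38 alternative values but 8 stayed within 1.5 times the count or within the pooled SD of 0.197. Leaving out probe sets with _x_at and _s_at left 4 metallothionein probe sets, of which 1, MT1M, was at least 1.5-fold lower, and their median was -0.178 in place of -2.45. The median of metallothionein probe sets with _x_at minus that of the others was -2.33. It was -0.787 with a floor at the median of all values, on the mean or on the brighter array, since that floor removes MT3 and a dim MT1G probe set. MT1M passes either floor only through its empty vector value, 7.33 beside 3.74 with miR-130b. The count of zinc transporter probe sets at least 1.5-fold lower was 0 in place of 1 with either floor on the mean, without the suffixed probe sets and with 1 probe set per gene, because each leaves out the SLC39A8 probe set concerned. No paired analysis was possible because each group holds 1 array.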
